A study of Mus musculus with 31 samples.

Results

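The proteasome is the large protease that degrades ubiquitin-tagged proteins, and its subunits are encoded by the Psm genes. In liver RNA of 31 BXD mouse strains, 51 array probes of 50 genes were taken as its members. A probe was a member where its annotation gave a single gene whose symbol starts with Psm, a letter from a to g and a number. All 51 had a value on every array, among 21765 probes that did, and Psmb8 alone had 2 probes.

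BXD/TyJ strains are recombinant inbred mice bred from C57BL/6J and DBA/2J, each fixed for either parental allele at a locus. Whole liver of males aged 8 weeks was used, with RNA of 3 mice pooled for a strain and labelled with a red Alexa Fluor dye. The only reference was a pool of 9 male C57BL/6J livers of the same age, labelled green, and dyes were not swapped. Each strain had 1 array, so the spread between strains holds array error too. No strain has a replicate check, and every p-value below is one over strains. Values are given as log2 ratios, most likely strain divided by reference, since strain RNA was red; means carry the SE over 31 strains. Ratios give no level, so neither the order of subunits by abundance nor the presence of hepatocyte markers could be checked on them. In whole liver, fewer cells of a type and less RNA per cell cannot be told apart.

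The 20S core is a barrel of 4 rings. The outer rings are built from alpha subunits (Psma genes) that gate the entrance, and the inner rings from beta subunits (Psmb genes), of which Psmb5, Psmb6 and Psmb7 carry the protease sites. The 19S regulatory particle, made of ATPases (Psmc genes) and non-ATPases (Psmd genes), binds the ubiquitin chain, removes it and threads the substrate in. Interferon-gamma replaces the catalytic subunits with Psmb8, Psmb9 and Psmb10, giving the immunoproteasome, whose peptides feed class I antigen presentation. Parenchymal liver cells mostly use the constitutive form, and immune cells carry more of the other.

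Promoters are shown here for Psmb5 and Psmb6, catalytic subunits whose ratios varied together, and for Psmb8 and Psmb9, immunoproteasome subunits that lie on either side of Tap1 on chromosome 17. Each run gives the 250 bases before the start of the gene in RefSeq on build GRCm38.p6. Capitals mark matches on either strand to the ISRE of interferon response (GAAA, any 2 bases, GAAA) or to TGANNNNGC, a loose pattern for the antioxidant response element.
Psmb5, chr14:54617996-54618245, minus strand: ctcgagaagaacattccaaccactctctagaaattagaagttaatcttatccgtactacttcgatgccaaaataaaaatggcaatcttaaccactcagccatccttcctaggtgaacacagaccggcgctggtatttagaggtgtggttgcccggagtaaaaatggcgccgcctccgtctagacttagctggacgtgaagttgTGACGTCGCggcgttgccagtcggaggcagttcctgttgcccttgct
Psmb6, chr11:70525107-70525356, plus strand: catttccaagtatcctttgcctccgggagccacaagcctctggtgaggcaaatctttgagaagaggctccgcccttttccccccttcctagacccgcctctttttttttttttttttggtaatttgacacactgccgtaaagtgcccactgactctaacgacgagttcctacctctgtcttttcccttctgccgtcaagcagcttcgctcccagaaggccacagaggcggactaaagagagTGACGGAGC
Psmb8, chr17:34197945-34198194, plus strand: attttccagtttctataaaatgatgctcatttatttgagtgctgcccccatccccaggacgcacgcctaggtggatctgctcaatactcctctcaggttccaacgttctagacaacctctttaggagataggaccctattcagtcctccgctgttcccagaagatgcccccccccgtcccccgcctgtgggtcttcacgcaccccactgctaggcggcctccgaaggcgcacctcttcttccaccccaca
Psmb9, chr17:34187331-34187580, minus strand: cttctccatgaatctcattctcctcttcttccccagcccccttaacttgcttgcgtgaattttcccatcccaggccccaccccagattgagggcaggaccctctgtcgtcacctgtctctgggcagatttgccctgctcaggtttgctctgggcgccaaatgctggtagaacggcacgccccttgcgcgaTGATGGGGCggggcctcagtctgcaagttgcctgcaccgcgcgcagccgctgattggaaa

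Psmb9 and Tap1, a transporter that carries peptides into the endoplasmic reticulum, are read in opposite directions, and 225 of these bases also lie before Tap1. In windows of 300 bases that add 50 bases after the start, the table held 45 windows for 42 of the 50 member genes. TGANNNNGC was found in 25 of the 45 member windows (55.6%), against 41.3% of all 32851 windows. The ISRE was found in 5 member windows (11.1%, against 3.44%). Among the catalytic and immunoproteasome genes with a window, Psmb5, Psmb6, Psmb8 and Psmb9 held TGANNNNGC, in Psmb8 only after the start, and none held the ISRE. These are matches of letters only.

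Series-wide, every array had been brought to the same distribution of values, with a median of -0.001 and an SD of 0.51, and no 2 arrays were identical. The arrays of strains 23, 28, 40 and 42 stood apart, with a median r with the other arrays between 0.06 and 0.37, where the other 27 strains had 0.57 to 0.79. Of the members, 25 had their lowest value on one of these 4 arrays (49.0%, against 44.5% of all probes). Probes whose identifier is a multiple of 8, here called every 8th probes, sat lower as a class, with panel means (averages over the strains) centred on -0.58 where all others centred on 0.04. They include 10 members: Psma1, Psma3, Psmb1, Psmb3, Psmb9, Psmd1, Psmd5, Psmd6, Psmd10 and Psmd12. Means of these 10 are given as deposited and after place correction, and their ranges over strains as deposited; the correction subtracts on each array the median of the probes at the same place in the count of 8. The part of place in any of their ratios was not tested otherwise.

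In the panel mean, Psmb6, Psmd7 and the probe named Psme2b were the members farthest above the reference, and Psmd12 was the member farthest below it. Of the 51 member probes, 25 were higher, 17 lower and 9 did not pass (limma's moderated test over all probes, Benjamini-Hochberg adjusted p under 0.05). Over all probes 37.4% were higher and 37.6% lower. The members' median mean was 0.08, against 0.001 over all probes. All 9 of the lower calls among every 8th members have to be read against that class, in which 2130 of 2532 probes were called lower. Among the 41 members at other places, 25 were higher and 8 lower, against 41.5% and 31.5% of all probes at those places. After place correction the members had 31 higher and 14 lower calls, where all probes had 37.0% and 36.9%. With strains 23, 28, 40 and 42 left out as well, 33 were higher and 14 lower, against 39.2% and 37.7% of all probes.

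**Figure D1:**
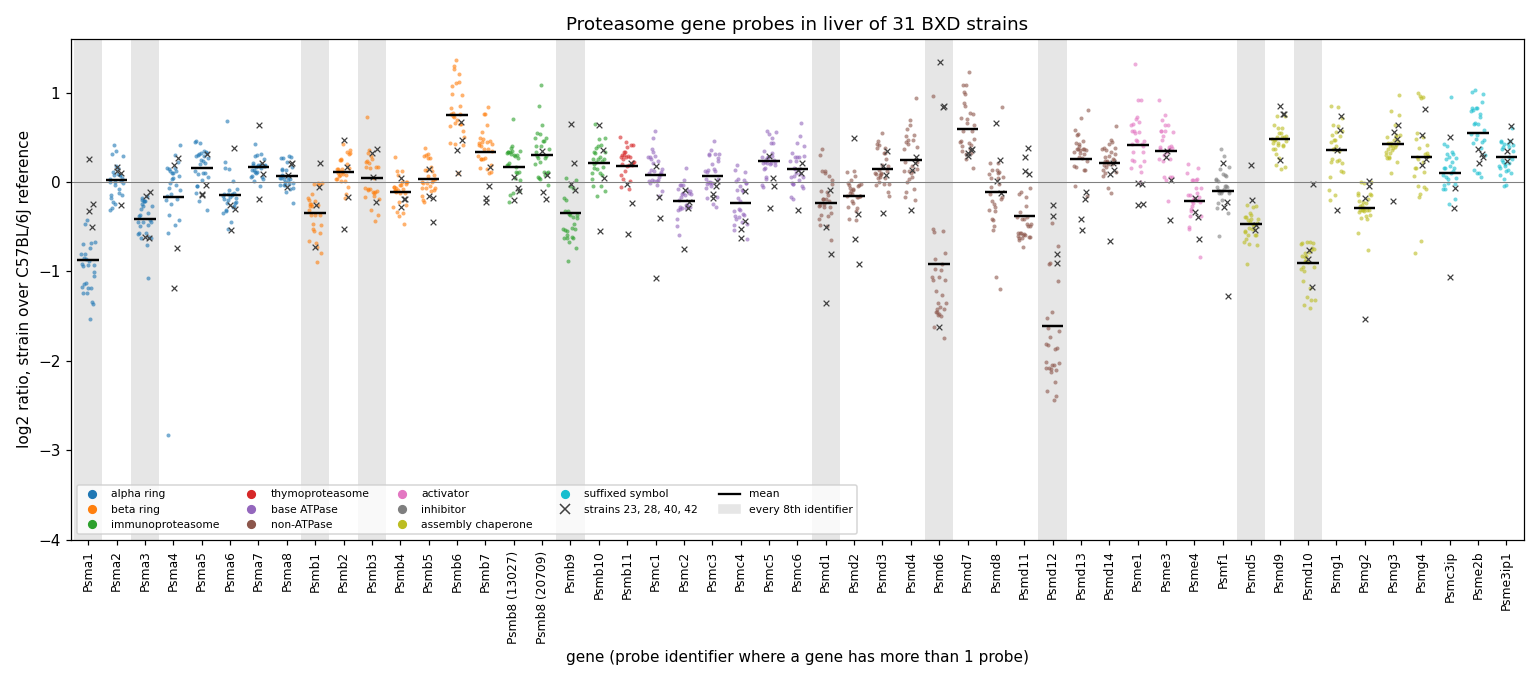
Log2 ratio of each of the 51 member probes (x axis, by structural group) in each of 31 strains (points; crosses are strains 23, 28, 40 and 42), with the mean as a black line and every 8th probes shaded grey. Psmb6 and Psmd7 lay above 0 in all 31 strains, while Psmd12 lay below 0 in all 31 and Psma4 reached -2.83 in strain 9.

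The alpha ring had means of both signs, between -0.17 and 0.17 apart from its every 8th probes Psma1 and Psma3. Of its 8 probes 3 were higher, 3 lower and 2 did not pass, where 37.4% of all probes were higher and 37.6% lower. Psma7 was higher at 0.17 ± 0.03 (adjusted p = 3.8e-06), with a lowest value of -0.19 in strain 40, a median of 0.17 and a highest of 0.64 in strain 28. It lay above 0 in 29 strains, and its SD of 0.14 was among the smallest, at percentile 3.62 of all probes. Psma5 was higher at 0.15 ± 0.04. The testis form Psma8 had 0.07 ± 0.03 and the smallest SD of any member, 0.13; no intensities were used, so whether such a probe had signal above background is unknown. Psma6 was lower at -0.14 ± 0.04, and Psma2 (0.02 ± 0.03) did not pass.

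Psma4 had the widest spread in the ring, with an SD of 0.60, and its mean of -0.17 ± 0.10 did not pass. Its values ran from -2.83 in strain 9 over a median of -0.01 to 0.41 in strain 31. A single strain made the low end, since the next lowest value was -1.19, in strain 40, and 15 strains lay above 0. The every 8th probes of this ring were called lower as deposited, Psma1 at -0.87 ± 0.06 and Psma3 at -0.42 ± 0.04. After place correction Psma1 was still lower (-0.30 ± 0.05), whereas Psma3 turned to 0.16 ± 0.05 and was called higher (adjusted p = 0.0030).

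Among the constitutive beta subunits, Psmb6 had the highest mean of all members. Psmb6 carries the caspase-like site. It ranged from 0.10 in strain 12 over a median of 0.72 to 1.37 in strain 5, and all 31 strains lay above 0. Its mean was 0.75 ± 0.06, a 1.68-fold ratio (adjusted p = 6.5e-14). Psmb7, with the trypsin-like site, ran from -0.23 in strain 40 over 0.37 to 0.84 in strain 18, and 28 strains lay above 0 (0.34 ± 0.04, adjusted p = 2.7e-08). Psmb5, with the chymotrypsin-like site, did not pass at 0.03 ± 0.03 (adjusted p = 0.47). It was lowest in strain 42 (-0.45) and highest in strain 15 (0.38), with 15 strains above 0 and 16 below. The catalytic subunits therefore differed in their distance from the reference, though a dye effect on a probe adds to its mean and was not tested.

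Among the structural beta subunits at ordinary places, Psmb2 was higher at 0.12 ± 0.04 and Psmb4 lower at -0.11 ± 0.03. Psmb1 and Psmb3, every 8th probes, both moved up with correction: Psmb1 went from -0.35 ± 0.05, called lower, to 0.23 ± 0.05, called higher, and Psmb3 from 0.05 ± 0.05, which did not pass, to 0.62 ± 0.05. Psmb3 then lay above 0 in 30 of 31 strains, where 16 did before.

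**Figure D2:**
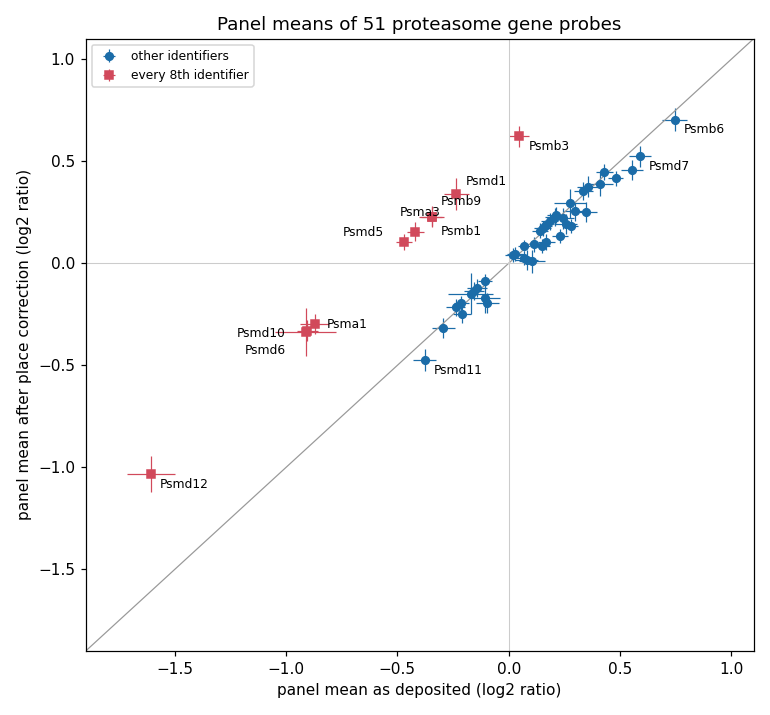
Panel mean of each member probe as deposited (x axis) and after place correction (y axis), both log2 ratios with SE over 31 strains; the grey diagonal marks equal values. The correction moves the means of all every 8th probes (squares) up by the same amount, so each lies above the diagonal. By this shift Psmb1, Psmb9, Psma3, Psmd1 and Psmd5 cross from below 0 to above 0.

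The immunoproteasome genes lay mostly a little above the reference, except for the deposited values of Psmb9. Psmb8, which takes the place of Psmb5, was read by 2 probes with the same sign. Probe 13027 ran from -0.22 in strain 32 over a median of 0.19 to 0.70 in strain 5, with 24 strains above 0 and a mean of 0.17 ± 0.04 (adjusted p = 0.00021). Probe 20709 ran from -0.20 in strain 42 over 0.29 to 1.08, again in strain 5, with 28 strains above 0 and a mean of 0.30 ± 0.05 (adjusted p = 1.3e-06). Both probes thus had the same strain at the top. Psmb10, the counterpart of Psmb7, ran from -0.55 in strain 40 over 0.23 to 0.65 in strain 15, and was higher at 0.21 ± 0.04 with 26 strains above 0.

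Psmb9, the counterpart of Psmb6, was called lower at -0.35 ± 0.06 (adjusted p = 1.2e-06), from -0.89 in strain 11 over -0.40 to 0.65 in strain 28, with 27 strains below 0. Its probe is an every 8th probe, and after place correction it was called higher, at 0.23 ± 0.05 (adjusted p = 4.0e-05), with 25 strains above 0. The sign of the Psmb9 mean therefore rests on that correction. The next highest strain after 28 was 42 (0.21), so both top values came from arrays that stood apart. Without those 4 arrays the deposited mean was -0.43. Psmb11, the thymus form that lies beside Psmb5, had 0.18 ± 0.04 and 26 strains above 0, with signal above background unknown.

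The 19S base ATPases, which unfold the substrate, had means between -0.24 and 0.23. Psmc5 (0.23 ± 0.04) and Psmc6 (0.14 ± 0.04) were higher, Psmc4 (-0.24 ± 0.04) and Psmc2 (-0.21 ± 0.03) lower, and Psmc1 and Psmc3 did not pass. Psmc1 had the largest SD of this group, 0.29, from -1.08 in strain 40 over 0.10 to 0.58 in strain 5. That low value belongs to an array that stood apart, and without the 4 arrays the SD was 0.17 and all 6 ATPases passed, 4 of them higher. Over all probes 39.9% were higher and 38.2% lower without those arrays.

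Within the 19S particle, the non-ATPases held both the highest and the lowest mean. Psmd7, partner of the deubiquitinase Psmd14, ran from 0.16 in strain 8 over 0.48 to 1.23 in strain 22 and was above 0 in all 31 strains (0.59 ± 0.05, adjusted p = 1.3e-12). Psmd14 itself, which cuts the ubiquitin chain off the substrate, was higher at 0.21 ± 0.04 with 28 strains above 0. Psmd13 (0.26 ± 0.05), the ubiquitin receptor Psmd4 (0.24 ± 0.05) and Psmd3 (0.15 ± 0.04) were also higher. Of the 11 probes 5 were higher and 5 lower, against 37.4% and 37.6% of all probes, and Psmd8 (-0.11 ± 0.07) did not pass. After place correction Psmd8 was called lower, at -0.17 ± 0.07. It had an SD of 0.41, running from -1.19 in strain 13 to 0.84 in strain 8.

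Psmd12 and Psmd6, both every 8th probes, had the lowest means of the group and the largest SDs of any members. Psmd12 ran from -2.44 in strain 22 over -1.83 to -0.26 in strain 40, below 0 in all 31 strains, with a mean of -1.61 ± 0.11 and an SD of 0.64. After correction it was still lower, at -1.03 ± 0.09 (adjusted p = 2.2e-12). Psmd6 ran from -1.74 in strain 36 over -1.10 to 1.34 in strain 40, with an SD of 0.82, at percentile 99.4 of all probes. Its 4 strains above 0 were 40, 14 (0.97), 23 (0.85) and 42 (0.83), and the next highest value was -0.52, in strain 38. Of those high values, all but that of strain 14 came from arrays that stood apart. The Psmd6 mean was -0.91 ± 0.14 as deposited and -0.34 ± 0.12 after correction, lower in both. At ordinary places Psmd11 (-0.38 ± 0.05) and Psmd2 (-0.16 ± 0.04) were lower. Psmd1, another every 8th probe, turned from -0.23 ± 0.06 to 0.34 ± 0.08.

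Activators and the inhibitor bind the ends of the core. Psme1, a subunit of the interferon-induced activator PA28, ran from -0.26 in strain 40 over 0.43 to 1.32 in strain 39 and was higher at 0.41 ± 0.06 (adjusted p = 1.6e-07). Psme3, the nuclear activator of the same family, was higher at 0.35 ± 0.05 with 29 strains above 0. Psme4, which encodes the activator PA200, was lower at -0.21 ± 0.04 with 24 strains below 0. Psmf1, the inhibitor PI31, did not pass (-0.10 ± 0.05, adjusted p = 0.086) and was lowest in strain 23, at -1.28. After place correction it was called lower, at -0.19 ± 0.05.

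Assembly chaperones build the rings and the base. All 7 probes passed, 4 higher and 3 lower, where 37.4% of all probes were higher and 37.6% lower. Psmd9 was higher at 0.48 ± 0.03 and lay above 0 in all 31 strains, from 0.15 in strain 22 to 0.85 in strain 40. Psmg3 (0.43 ± 0.04, 30 strains above 0), Psmg1 (0.36 ± 0.05) and Psmg4 (0.27 ± 0.07) were also higher, while Psmg2, the partner of Psmg1, was lower at -0.29 ± 0.05. Psmg4 had the largest SD here, 0.42, from -0.79 in strain 14 to 0.99 in strain 15. The every 8th probes Psmd10 (-0.90 ± 0.05) and Psmd5 (-0.47 ± 0.04) were called lower, and place correction gave -0.33 ± 0.05 and 0.10 ± 0.04.

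Symbols with letters after the number account for the last 3 members. Psme2b is a near copy of Psme2, the other PA28 subunit, and reads from either gene cannot be told apart by name; no probe carried the symbol Psme2. Its probe ran from 0.05 in strain 18 to 1.02 in strain 15, above 0 in all 31 strains, with a mean of 0.55 ± 0.05. Psme3ip1, a partner of Psme3, was higher at 0.28 ± 0.03, and Psmc3ip, a meiotic recombination factor and no proteasome subunit, did not pass (0.10 ± 0.06). In all, 4 members lay above 0 in every strain, namely Psmb6, Psmd7, Psmd9 and Psme2b, against 3.6% of all probes. The 3 below 0 in every strain as deposited were the every 8th probes Psma3, Psmd10 and Psmd12, against 4.48% of all probes. After place correction Psma3 was above 0 in 24 strains, and Psmd10 and Psmd12 in 1 strain each.

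Spread between strains was ordinary for most members. The median SD was 0.25, against 0.24 over all probes, and 29 of the 51 members lay above that background median. The 3 members in the top 5% of all probes were Psmd6, Psmd12 and Psma4, described above, and the smallest SDs were those of Psma8 and Psma7. Without strains 23, 28, 40 and 42 the members' median SD was 0.20, and that of all probes was not computed for those strains.

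Proteasome members co-varied across strains only weakly as a whole. The mean pairwise Pearson r over 1275 pairs of member probes was 0.05, against 0.001 over all probe pairs, and 57.3% of member pairs were positive, against 49.9%. Pairs with r of 0.5 or more made up 4.24% of member pairs and 3.47% of all pairs, and those at -0.5 or below 1.73% and 3.17%. Without the 4 arrays that stood apart the shares were 3.29% against 1.63%, and 0.392% against 1.5%. These are descriptions with no test. Every 8th members had a mean r of 0.13 with each other and -0.04 with the rest, and all every 8th probes had 0.18 with each other. After place correction the members' values were 0.04 and 0.06, and that of all every 8th probes 0.004. With the 4 arrays left out and no correction, they were 0.08, 0.07 and 0.03, so both settings moved them. After correction the mean r over all member pairs was 0.07.

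The 20S core was more coherent than the 19S particle by this measure, a difference that was not tested. Mean r was 0.11 over the 105 pairs within the core, 0.05 over the 136 pairs within the 19S particle and 0.09 between both. Some core probes lie at regular distances in the order of identifiers, such as 7680 for Psma5 and Psmb7 and 11520 for Psmb5 and Psmb7. The part of place in the difference between core and particle was not tested. Within the particle, the ATPases had 0.18 and the non-ATPases -0.01. Without the 4 arrays these came to 0.18 for the core, 0.05 for the particle, 0.09 for the ATPases and 0.03 for the non-ATPases. Single members closest to the rest were Psmb6, with a mean r of 0.19 with the other members, and Psmb7, with 0.17. Psmd6 had the lowest, -0.14.

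The catalytic subunits Psmb5, Psmb6 and Psmb7 varied together. This trio was singled out after the values were seen, so no test is given. Psmb5 and Psmb6 had r = 0.63 and rho = 0.59 over 31 strains, and r = 0.65 without the 2 strains farthest from the median of Psmb5. Psmb6 and Psmb7 had r = 0.61 and rho = 0.52, and 0.55 without the 2 farthest strains. Psmb5 and Psmb7 had r = 0.58 and rho = 0.57, and 0.51 without them. Without the 4 arrays that stood apart, the r values were 0.71, 0.48 and 0.60 in the same order, and after place correction 0.61, 0.59 and 0.57. The trio was jointly high in strains 5 and 15, where Psmb6 reached 1.37 and 1.29 and Psmb5 had its highest values, 0.31 in strain 5 and 0.38 in strain 15. The structural subunits Psmb1 to Psmb4 had a mean r of -0.04, and of 0.07 after place correction. The trio's probes have the identifiers 4390, 13029 and 15910, and the part of place in their co-variation was not tested.

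**Figure D3:**
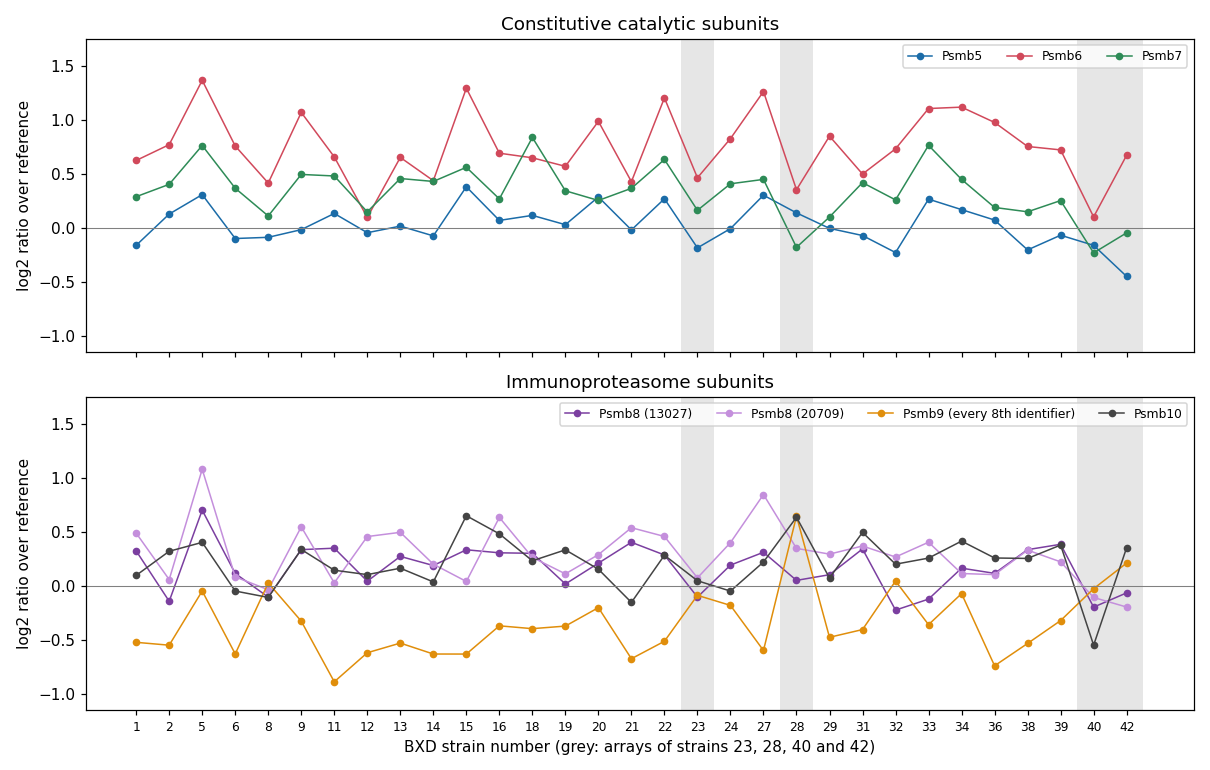
Log2 ratio over the reference (y axis) of the catalytic subunits Psmb5, Psmb6 and Psmb7 (upper panel) and of the immunoproteasome probes (lower panel) by BXD strain number (x axis), with arrays that stood apart in grey. Psmb6 and both Psmb8 probes have their highest values in strain 5, and Psmb9 has its highest in strain 28.

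Immunoproteasome genes did not vary together to the same extent. The 2 probes of Psmb8 had r = 0.63 and rho = 0.49 with each other, and r = 0.55 both without the 4 arrays and without the 2 strains farthest from the median of probe 13027; this pair too was looked at after the values were seen. Between genes, 16 probe pairs of 11 gene pairs were compared with two-sided permutation tests of 100000 resamples, with Benjamini-Hochberg adjustment over the 16. None passed by r or by rho, and 6 had an unadjusted p under 0.05 by r. Psmb8 and Psmb10 had r = 0.32 (rho = 0.26, permutation p = 0.076 and 0.16, adjusted 0.15 and 0.28) for probe 13027, and r = 0.21 (rho = 0.14, permutation p = 0.25 and 0.46, adjusted 0.30 and 0.56) for probe 20709. Psmb9 and Psmb10 had r = 0.13 (rho = 0.17, permutation p = 0.49 and 0.37, adjusted 0.52 and 0.49), and r = 0.31 after place correction. Psmb8 and Psmb9 had r = -0.36 (rho = -0.37, permutation p = 0.046 and 0.039, adjusted 0.12 and 0.16) for probe 13027 and -0.11 for probe 20709. After place correction these were -0.10 and 0.18, and without the 4 arrays that stood apart -0.18 and 0.13, so the pair had no stable sign across both probes.

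Psmb8 came closest to passing with Psme1, the activator that interferon-gamma induces together with it. Probe 13027 had r = 0.47 and rho = 0.48 with Psme1 (permutation p = 0.0077 and 0.0071, adjusted 0.11 and 0.057). Probe 20709 had r = 0.42 and rho = 0.48 (permutation p = 0.018 and 0.0060, adjusted 0.11 and 0.057). Without the 2 strains farthest from the median of the Psmb8 probe, r rose to 0.61 and 0.51, with adjusted permutation p = 0.0037 and 0.037. Without the 4 arrays that stood apart, r was 0.25 and 0.26, and neither passed, so the strength of the relation depends on which strains are kept. Psmb9 with Psme1 had the opposite sign as deposited, r = -0.36 (rho -0.27, permutation p = 0.044 and 0.14, adjusted 0.12 and 0.28), and r = 0.02 after place correction. Psmb10 with Psme1 had r = 0.26 (rho 0.13, permutation p = 0.16 and 0.49, adjusted 0.26 and 0.56).

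Psmb8 and its constitutive counterpart Psmb5 did not oppose each other: r was 0.39 and 0.41 for the 2 Psmb8 probes (rho 0.27 for both, permutation p = 0.032 and 0.021 by r and 0.15 and 0.14 by rho, adjusted 0.12, 0.11, 0.28 and 0.28). Psmb6 with Psmb9 had r = -0.16 (rho -0.08, permutation p = 0.40 and 0.68) and 0.03 after place correction, and Psmb7 with Psmb10 r = 0.28 (rho 0.25, permutation p = 0.12 and 0.18). Tap1, which shares its promoter region with Psmb9, had r = -0.23 with it (rho -0.19, permutation p = 0.22 and 0.31), and -0.04 after place correction. With Psmb8, Tap1 had r = 0.34 and 0.24 (rho 0.37 and 0.29, permutation p = 0.061 and 0.19 by r, adjusted 0.14 and 0.28). None of these pairs passed after adjustment, and a p that misses the threshold does not show that such genes vary independently.

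**Figure D4:**
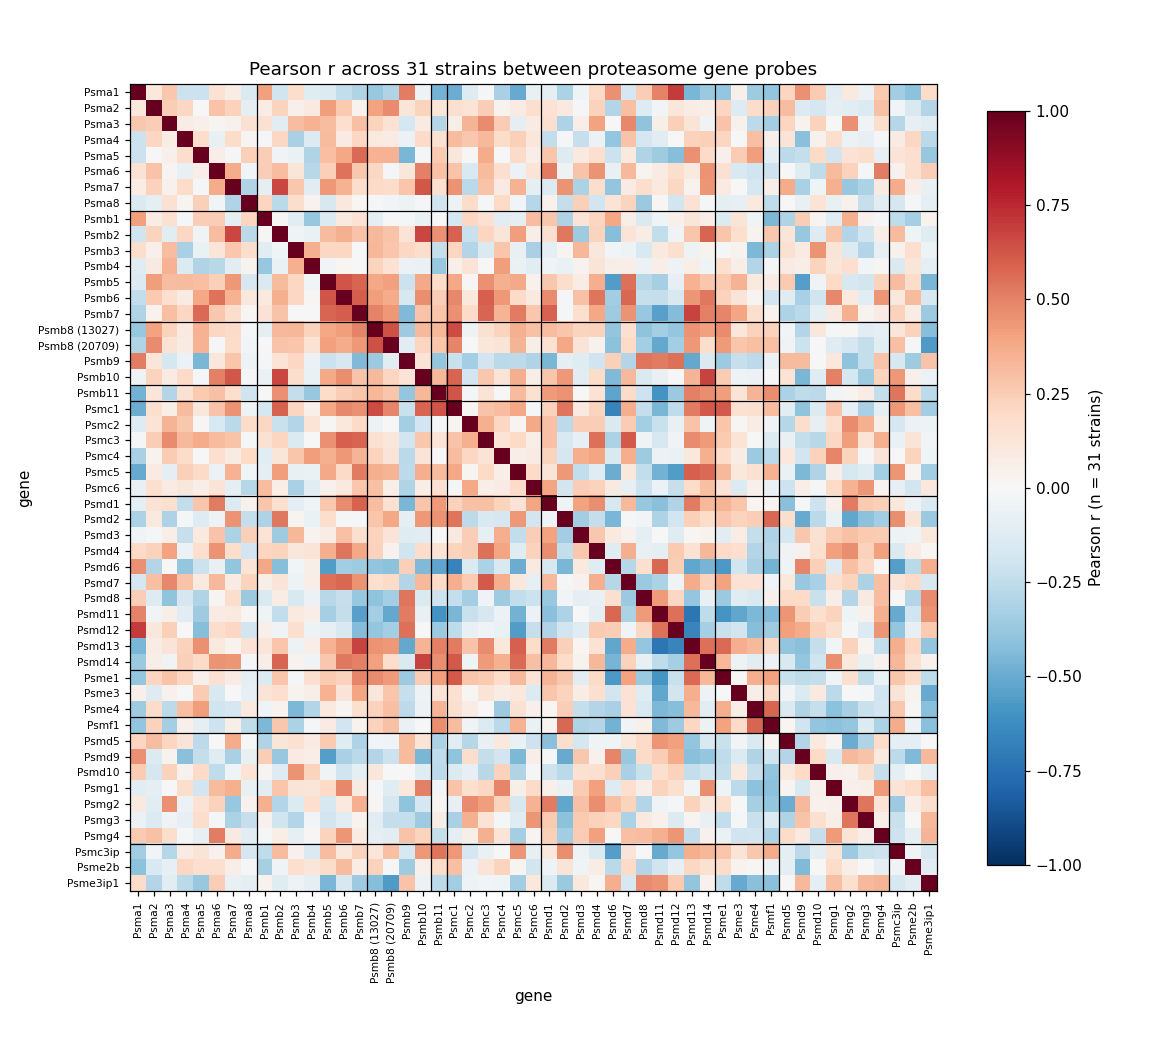
Pearson r across 31 strains (colour, from -1 in blue to 1 in red) between all member probes, ordered by structural group with black lines between groups. Psmb5, Psmb6 and Psmb7 form a red block with r from 0.58 to 0.63, and Psmd6 and Psmd11 form stripes that are mostly blue, with a mean r with the other members of -0.14 and -0.10.

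Other strong pairs were picked after their values were seen, from both ends of 1275. After the highest, Psma1 with Psmd12, came Psmb7 with Psmd13 at r = 0.68 (rho 0.62), Psmb10 with Psmd14 at 0.67 (rho 0.50), Psmb2 with Psmb10 at 0.67 (rho 0.52) and Psmb2 with Psma7 at 0.67 (rho 0.53). Without the 4 arrays that stood apart these came to 0.34, 0.58, 0.37 and 0.41, so all of these pairs were lower there. Psmc1 and Psmb8 probe 13027 had 0.65 (rho 0.64), and 0.60 without them. Psmc3 and Psmd7 had 0.62 (rho 0.59), and 0.57 without them. Pairs of about the same rank fell further. Psmc1 with Psmb11 went from 0.63 to 0.07, Psmb10 with Psma7 from 0.62 to 0.32 and Psmc1 with Psmd14 from 0.61 to 0.13. Psme4 and Psmf1, an activator and the inhibitor, were farther down by r (0.58, and 0.50 without the 4 arrays) but had a rho of 0.74. Psma1 with Psmd12, at 0.70 and 0.47 without the 4 arrays, joined 2 every 8th probes and was 0.49 after place correction. The lowest were Psmd11 with Psmd13 at -0.72 (rho -0.37) and Psmc1 with Psmd6 at -0.67 (rho -0.45), which came to -0.33 and -0.20 without the 4 arrays. On those arrays Psmd11 was high, with 0.38 in strain 42 and 0.28 in strain 40, and Psmd13 low, with -0.54 in strain 40 and -0.41 in strain 28.

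Place again moved with these values. Probes of related genes sat close in the order of identifiers, and 15 member pairs lay within 4 identifiers of each other, such as Psmb8, Psmb6 and Psmd14 or Psmd13, Psmc3, Psma6 and Psmb1. Their median r was 0.24, with 14 of 15 positive, and several of these pairs share a probe. The other 1260 member pairs had a median of 0.06, with 716 positive. All 85195 probe pairs that close had 0.07, with 50809 positive. The part of closeness in the members' co-variation was not tested, nor was that of any longer repeat in the order of identifiers.

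By strain, members were highest as a set in strains 5 and 15. A strain's score was the mean over members of the distance from each probe's own median. Over all 51 members it ran from -0.12 in strain 40 to 0.15 in strain 5, where 42 members lay above their median, and strain 15 followed with 0.14 and 36 members. For the 20S core strain 15 was highest (0.20, 13 of 15 probes) and strain 12 lowest (-0.19, 3 of 15). For the 19S particle strain 15 was again highest (0.19, 13 of 17) and strain 13 lowest (-0.12, 5 of 17). For the immunoproteasome strain 5 was highest (0.45, 4 of 4 probes) and strain 40 lowest (-0.30, 1 of 4). Strain 40's array stood apart; without those 4 arrays strain 5 kept the highest score over all members (0.15) and strain 12 had the lowest (-0.07). After place correction strain 27 was highest for the core (0.21) and strain 40 lowest (-0.31), while strain 15 was still highest for the particle (0.17).

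**Figure D5:**
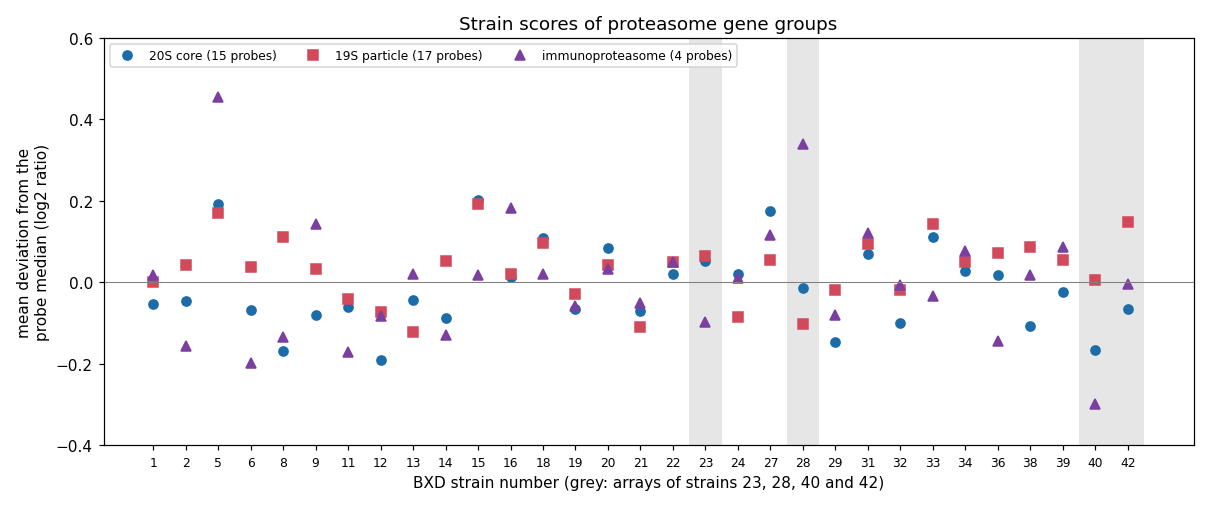
Score of each strain (y axis, mean distance from the probe medians in log2 ratio) for the 20S core, the 19S particle and the immunoproteasome, by BXD strain number (x axis), with arrays that stood apart in grey. Strains 5 and 15 are high for core and particle, and strain 5 has the highest immunoproteasome score, 0.45.

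Markers of other cell types were scored in the same way. For 13 leukocyte marker probes the strain scores ran from -0.23 to 0.16, and strain 5 had -0.03, rank 11 of 31 from the lowest. For 8 macrophage and Kupffer cell probes they ran from -0.60 to 0.25, and strain 5 had 0.07, rank 25. Strain 40, lowest for the immunoproteasome, was also lowest for the macrophage list and rank 3 for leukocytes (-0.15). It was lowest for 9 hepatocyte probes too (-0.43), where strain 5 had -0.09. The hepatocyte list was split in strain 40, with 4 of the 9 probes above their own median. Alb had its lowest value there (-2.60) and Apob its highest (0.41). Strain 15, highest for core and particle, had -0.18 for leukocytes (rank 2), -0.004 for macrophages (rank 18) and -0.31 for hepatocytes (rank 4). The part of cell content in the scores was not tested.

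Other genes of the ubiquitin pathway had means of both signs. Of 28 partners on a list, 16 were measured by 18 probes, of which 5 were higher, 6 lower and 7 did not pass, where 37.4% of all probes were higher and 37.6% lower. Of the 6, the every 8th probe of Rad23b, a shuttle for ubiquitinated proteins, turned from -0.21 ± 0.03 to 0.37 after place correction. Vcp, the unfoldase that hands substrates to the proteasome, was higher at 0.53 ± 0.04 and above 0 in all 31 strains, and Ngly1, which activates Nfe2l1 by removing its sugars, at 0.30 ± 0.04. Nfe2l1, the factor that raises proteasome gene transcription when the protease is inhibited, was lower at -0.63 ± 0.11 with 29 strains below 0. It varied most of the list, with an SD of 0.66, from -2.56 in strain 40 over -0.53 to 0.45 in strain 28, both arrays that stood apart. The small 19S subunit Sem1, whose symbol the rule does not match, was lower at -0.30 ± 0.04. Of the 18, Ubqln2 had the second largest SD (0.34), and its mean of 0.08 ± 0.06 did not pass; at an every 8th place, it had 0.65 after correction. The assembly factor Pomp had the next largest (0.29) and did not pass (-0.07 ± 0.05).

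Class I antigen processing, which uses immunoproteasome products, had 15 of 19 listed genes measured, 5 higher, 4 lower and 6 that did not pass, against 37.4% and 37.6% of all probes. The peptide-loading chaperone Calr was higher at 0.55 ± 0.05 in all 31 strains. The transporter subunits Tap2 (0.23 ± 0.03) and Tap1 (0.09 ± 0.03) and the light chain B2m (0.17 ± 0.06) were higher too, but Tap1 did not pass after place correction (0.03, adjusted p = 0.49 with limma). Jak2, a kinase of the interferon-gamma receptor, was lower at -0.28 ± 0.03, as was the chaperone Canx (-0.27 ± 0.04). The class I heavy chain H2-K1 had the largest SD, 0.56, then Tapbp with 0.49 and H2-D1 with 0.34, and the means of all 3 did not pass. The interferon factor Irf1 had 0.03 ± 0.04 and did not pass.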

How the data were processed

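The authors deposited 1 normalized log ratio per feature and array, which the submitters' processing notes credit to limma in R 2.0.0, and it was taken here as log2. The log base, the direction, and how background and intensity trends were handled are not stated in the sources; the dyes in the labels' protocols make strain over reference likely. Of 23040 features, 1275 were empty, and the 21765 probes with values on all 31 arrays were kept with no further filter. Names came from the platform annotation, updated by gene ID from RefSeq (GRCm38.p6), which held all 51 member probes. Whether each panel mean differed from 0 was assessed with limma 3.58.1 under R 4.3.3 (intercept, eBayes, two-sided, adjusted over all probes), after a trial on simulated data. This leaves out the spread of the reference, and nothing says which arrays shared a run. The members, lists, fixed pairs, alternatives and place correction were chosen with earlier results of these data known. Named were all catalytic, immunoproteasome, activator and inhibitor genes; in each other group, the 2 highest and 2 lowest means and the 2 largest SDs; of other lists, up to 3 by absolute mean and 3 by SD. Members and genes named beyond that were chosen after their values were seen. Pairs with Psme2 had no probe, and a planned protein comparison was not run. Precision is set by how many arrays there are; without intensities, signal over background is unknown. A further planned promoter motif is not reported here.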

Additional observations from a re-analysis of the deposited data

How the results depend on the processing

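Centring each array, robust eBayes and averaging the Psmb8 probes changed no call of the panel mean in 51 probes, and array weights added 4 calls. Asking for a mean beyond 0.2 lowered the 25 higher and 17 lower calls to 10 and 9. The share of all probes past that limit was not counted, so these 2 counts have no background. Every 8th probes such as Psmd10 were among the 9, as deposited and without place correction. Place correction turned 5 called means positive: Psmd1 to 0.34, Psmd5 to 0.10, Psmb1 to 0.23, Psma3 to 0.16 and Psmb9 to 0.23. With strains 23, 28, 40 and 42 also left out, these were 0.47, 0.14, 0.28, 0.22 and 0.22. Mean pairwise r stayed between 0.05 and 0.09 over all alternatives, the highest being without every 8th members. Of the 16 fixed pairs, 2 passed without the 2 strains farthest from the median and 0 under the other 4 alternatives, and 5 that never passed changed sign under some alternative. The cause of these changes was not tested. Arrays without replicates limit every strain value.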
